A study of Mus musculus with 6 samples.

Results

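The genes described here mark macrophages and leukocytes in general: 33 myeloid and pan-leukocyte genes named in a list, of which 33 were measured, each through the only probe set of the array that carries its symbol alone. They are 33 of 19938 genes with such a probe set. The arrays hold RNA of ascending or of descending aorta from untreated mouse embryos, wild-type and of C57BL/6 background, aged 13.5 days postcoitum. Each segment has 3 arrays, which makes 6 in all. The study set the segments side by side because the smooth muscle of their walls differs in embryonic origin, neural crest against mesoderm. Each sample is RNA of the tissue, not of sorted cells. The replicates are labelled as biological, but no embryo, litter or pool is named. The p-values set each difference against the spread among these samples, and how far they reach beyond them is unknown. Across all genes, ascending replicate 3 stood apart: it lay closer to the descending arrays (mean Pearson's r across genes 0.996) than to ascending replicates 1 and 2 (0.988), where genes are not independent replicates. Results that rest on it are given with and without it. All values are levels on the log2 scale as deposited, and a difference is the ascending minus the descending mean on that scale.

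Macrophages of the embryo arise first from the yolk sac and later also from fetal liver, and seed tissues before birth. Their survival depends on the receptor CSF1R and their identity on the transcription factor PU.1, the product of Spi1. They clear dying cells and matrix, and for this they carry Fc receptors, immunoreceptor adaptors with tyrosine-based (ITAM) motifs, complement C1q, lysosomal enzymes and an oxidase. In the vessel wall they lie mainly in the adventitia.

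The 33 genes differed more among the ascending arrays than between segments. Ascending replicate 2 was the lowest of the 6 arrays for 31 of the 33 genes, where it was lowest for 24.4% of all genes. It was below all 3 descending arrays for 32 of the 33, against 34.6% of all genes. Ascending replicate 3 was the highest array for 22 of the 33, against 11% of all genes, and above all 3 descending arrays for the same number, against 19.8%. Relative to the descending mean of each gene, the median of the 33 genes was -0.06 on ascending replicate 1, -0.84 on replicate 2 and 0.20 on replicate 3. The descending arrays gave -0.04, 0.05 and 0.01, and the medians of all genes lay between -0.03 and 0.03 on the 6 arrays. The level was at least 2-fold higher on ascending replicate 3 than on replicate 2 for 18 of the 33 genes, against 1.58% of all genes, and at least 2-fold higher on replicate 1 than on replicate 2 for 9, against 0.416%. These are differences between single arrays of the same label and have no replicate test. In bulk RNA, fewer cells of a type and less RNA per cell cannot be told apart.

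**Figure D1:**
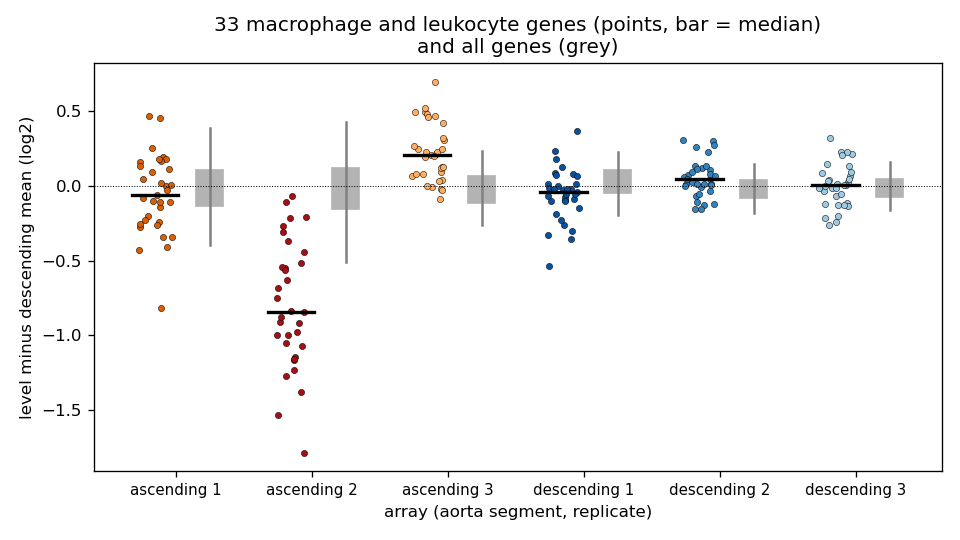
For each array, the level of each of the 33 genes minus its descending mean (log2, points, with the median as a black bar) beside the same for all 19938 genes (grey box from the 25th to the 75th percentile, line from the 5th to the 95th). The points of ascending replicate 2 all lie below 0, with a median of -0.84, while those of replicate 1 scatter around -0.06 and those of replicate 3 around 0.20.

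Between segments, no member passed limma at an adjusted p of 0.05 on all 6 arrays, where 0% of all genes did (1852 at an unadjusted p of 0.05), and no member reached even an unadjusted p of 0.05, where 9.29% of all genes did. The adjusted p of the members ran from 0.538 to 0.971. Their ascending means were lower for 29 genes and higher for 4, with a median difference of -0.21, beside -0.02 over all genes. In 0 of the 33 did the 3 ascending arrays lie clear of the 3 descending arrays, against 14.8% of all genes. The ascending arrays were far apart: the median SD of the members was 0.55 in ascending and 0.13 in descending aorta, and the corresponding medians over all genes were 0.12 and 0.10. The ascending SD was the larger for 31 of the 33 genes.

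**Figure D2:**
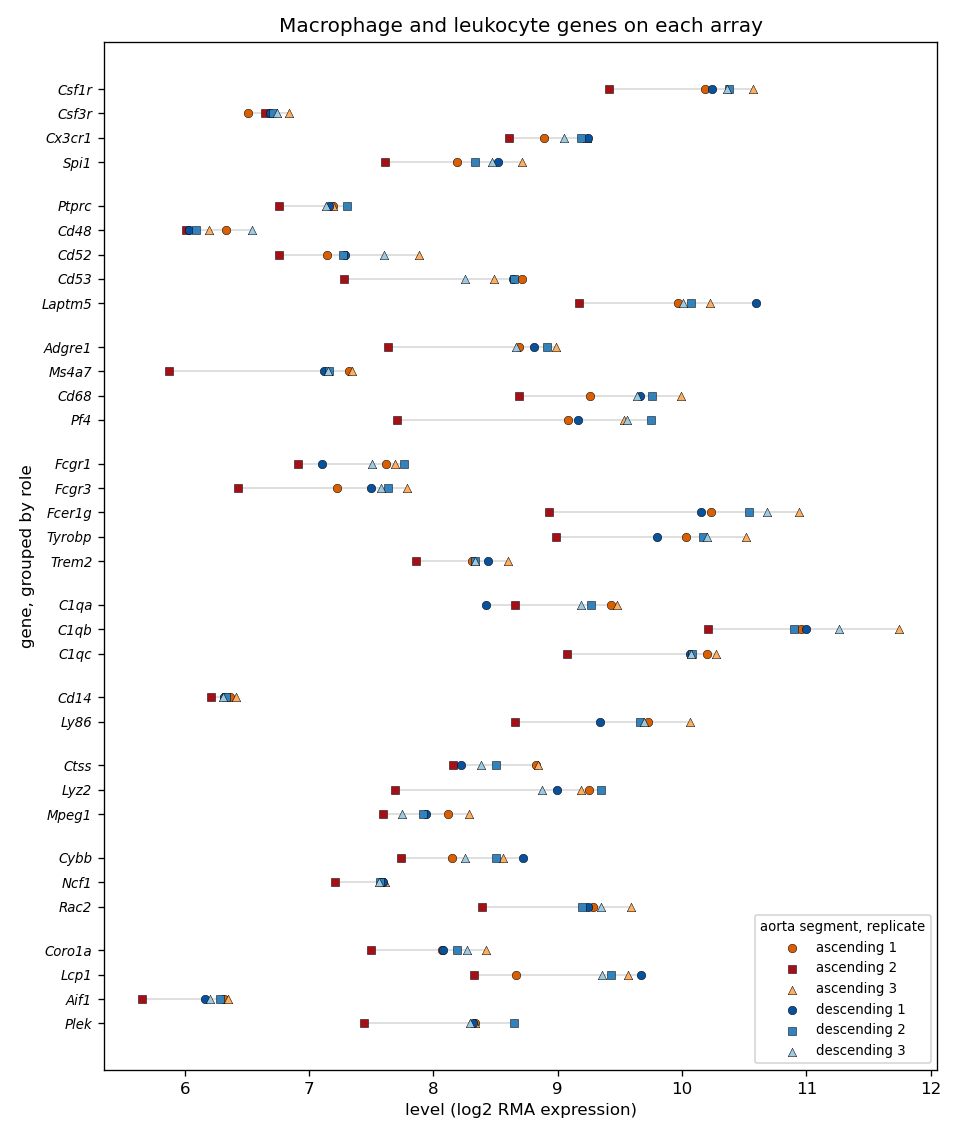
Levels (log2 expression) of the 33 genes on each of the 6 arrays, in rows grouped by role, with ascending arrays in warm and descending arrays in blue colours. The dark red square of ascending replicate 2 is leftmost in every row but those of Csf3r and C1qa.

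The receptor that keeps macrophages alive, Csf1r, read 10.19, 9.41 and 10.57 on ascending replicates 1, 2 and 3 and 10.24, 10.37 and 10.36 on the descending ones. Ascending replicate 2 was far below and replicate 1 just below the descending arrays, while replicate 3 was above them all. The segments averaged 10.05 ± 0.59 (SD, n = 3) over the ascending and 10.32 ± 0.08 (SD, n = 3) over the descending arrays, which differ by -0.27 ± 0.26 (SE). Spi1, the gene of the lineage factor PU.1, read 8.19, 7.61 and 8.71 on ascending replicates 1, 2 and 3 and 8.52, 8.34 and 8.47 on the descending ones, in the same order at both ends. Cx3cr1, the receptor for the chemokine fractalkine, read 8.89, 8.61 and 9.24 on ascending replicates 1, 2 and 3 and 9.24, 9.18 and 9.05 on the descending ones. Here replicates 1 and 2 were both below the descending arrays and replicate 3 was level with the highest of them. Its difference was -0.25 ± 0.15 (SE) (limma adjusted p = 0.618). Csf3r, the receptor of the granulocyte growth factor G-CSF, varied least of these 4 genes, between 6.51 and 6.84, and was lowest on ascending replicate 1.

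Among the pan-leukocyte surface genes, Laptm5, a lysosomal membrane protein of blood cells, read 9.96, 9.17 and 10.22 on ascending replicates 1, 2 and 3 and 10.59, 10.07 and 10.01 on the descending ones. Replicates 1 and 2 were below the descending arrays, but descending replicate 1 stood above all others, and the difference was -0.44 ± 0.28 (SE) (limma adjusted p = 0.622). Cd53, a tetraspanin of leukocytes, read 8.71, 7.28 and 8.49 on ascending replicates 1, 2 and 3 and 8.64, 8.65 and 8.26 on the descending ones. It had its highest level on ascending replicate 1, 2.69-fold above replicate 2. Ptprc, the CD45 phosphatase that defines leukocytes, spanned 6.76 to 7.30, with ascending replicate 2 low and the other 5 arrays close together. Cd52 spanned 6.76 to 7.88 and Cd48 6.01 to 6.54, and Cd48 varied more among the descending than among the ascending arrays.

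Among the macrophage markers proper, Pf4, a chemokine of platelets and of embryonic macrophages, read 9.08, 7.70 and 9.53 on ascending replicates 1, 2 and 3 and 9.16, 9.75 and 9.55 on the descending ones. Its range of 2.04 was the widest of the 33, and replicates 1 and 2 were both below the descending arrays. The segments averaged 8.77 ± 0.95 (SD, n = 3) over the ascending and 9.49 ± 0.30 (SD, n = 3) over the descending arrays, a difference of -0.72 ± 0.43 (SE) with an adjusted p of 0.603 by limma. Ms4a7, a membrane protein typical of macrophages, read 7.32, 5.87 and 7.35 on ascending replicates 1, 2 and 3 and 7.12, 7.16 and 7.15 on the descending ones. Replicate 2 alone was low there, while replicates 1 and 3 were above all descending arrays, which lay within 0.04 of each other. Cd68, a lysosomal glycoprotein, read 9.26, 8.69 and 9.99 on ascending replicates 1, 2 and 3 and 9.66, 9.76 and 9.63 on the descending ones, so that ascending replicates lay on both sides of a narrow descending group. Adgre1, a classical surface marker of mouse macrophages, was 2.56-fold higher on ascending replicate 3 than on replicate 2.

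The Fc receptors, the ITAM adaptors and Trem2 were all lowest on ascending replicate 2 (5 of 5). Fcer1g, the shared gamma chain that carries an ITAM, read 10.23, 8.93 and 10.94 on ascending replicates 1, 2 and 3 and 10.15, 10.54 and 10.68 on the descending ones. Ascending replicate 3 was the highest and 4.03-fold above replicate 2, the largest step between these arrays among the 33 genes. Tyrobp, which encodes the ITAM adaptor DAP12, read 10.03, 8.98 and 10.52 on ascending replicates 1, 2 and 3 and 9.80, 10.17 and 10.20 on the descending ones. Its partner Trem2, a lipid-sensing receptor, spanned 7.86 to 8.60, a smaller range in the same order at both ends. Fcgr3 differed by -0.42 ± 0.30 (SE) and Fcgr1, the high-affinity IgG receptor, by -0.05 ± 0.24 (SE). Fcgr1 was also low on descending replicate 1, at 7.11, where the other descending arrays gave 7.76 and 7.51.

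The chains of C1q, which starts the classical complement pathway and which macrophages secrete, did not keep step on every array. C1qb read 10.95, 10.21 and 11.75 on ascending replicates 1, 2 and 3 and 11.00, 10.90 and 11.26 on the descending ones. C1qc read 10.20, 9.07 and 10.27 on ascending replicates 1, 2 and 3 and 10.06, 10.08 and 10.07 on the descending ones. Both were lowest on ascending replicate 2 and highest on replicate 3. C1qa read 9.43, 8.66 and 9.48 on ascending replicates 1, 2 and 3 and 8.43, 9.27 and 9.19 on the descending ones, and its lowest array was descending replicate 1, on which C1qb lay between and C1qc close to the other descending arrays. The differences between segments were -0.08 ± 0.34 (SE), -0.22 ± 0.29 (SE) and 0.23 ± 0.28 (SE) for C1qb, C1qc and C1qa. Without descending replicate 1 that of C1qa was -0.0404.

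Of the genes for recognition of bacterial lipopolysaccharide, Ly86, which encodes MD-1, read 9.73, 8.65 and 10.06 on ascending replicates 1, 2 and 3 and 9.34, 9.66 and 9.70 on the descending ones, with ascending replicates 1 and 3 above and replicate 2 below all descending arrays. Cd14, the co-receptor, stayed between 6.21 and 6.41 on all arrays. Lyz2, lysozyme of macrophages, read 9.25, 7.69 and 9.19 on ascending replicates 1, 2 and 3 and 8.99, 9.35 and 8.87 on the descending ones. Replicate 2 was low by itself here, 2.94-fold below replicate 1, and Lyz2 has a close copy in the genome, Lyz1, so part of this signal may be shared. Ctss, the endosomal protease cathepsin S, read 8.82, 8.15 and 8.84 on ascending replicates 1, 2 and 3 and 8.22, 8.51 and 8.38 on the descending ones, and its difference of 0.24 ± 0.19 (SE) was the highest of the 33. Mpeg1, a pore-forming protein of phagosomes, read 8.12, 7.59 and 8.28 on ascending replicates 1, 2 and 3 and 7.94, 7.91 and 7.74 on the descending ones. In both, ascending replicates 1 and 3 were above the descending arrays and replicate 2 below them.

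The phagocyte oxidase makes superoxide through the membrane subunit encoded by Cybb, the organizer encoded by Ncf1 and the small GTPase Rac2. Cybb read 8.15, 7.74 and 8.56 on ascending replicates 1, 2 and 3 and 8.72, 8.50 and 8.25 on the descending ones, with replicates 1 and 2 below the descending arrays and a difference of -0.34 ± 0.21 (SE) (limma adjusted p = 0.614). Rac2 read 9.28, 8.39 and 9.59 on ascending replicates 1, 2 and 3 and 9.24, 9.20 and 9.35 on the descending ones. Ascending replicate 2 was low there and replicate 3 the highest. Ncf1 spanned 7.21 to 7.61, and most of that span was ascending replicate 2 against the rest, which lay between 7.56 and 7.61. Their companion subunits, not in the list of 33, included Cyba, at a difference of 0.28. Of 3 such genes measured 0 reached an unadjusted p of 0.05, where 9.29% of all genes did.

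Lcp1, which encodes L-plastin, an actin-bundling protein of leukocytes, had the smallest p of the 33 (limma, unadjusted p = 0.0613, adjusted p = 0.538). It read 8.67, 8.33 and 9.57 on ascending replicates 1, 2 and 3 and 9.67, 9.43 and 9.35 on the descending ones. Replicates 1 and 2 were below all descending arrays, and replicate 3 lay among them, so the segments overlapped. The means were 8.85 ± 0.64 (SD, n = 3) over the ascending and 9.48 ± 0.16 (SD, n = 3) over the descending arrays, a difference of -0.63 ± 0.29 (SE). Plek, the platelet and leukocyte substrate of protein kinase C, read 8.34, 7.44 and 8.33 on ascending replicates 1, 2 and 3 and 8.32, 8.65 and 8.30 on the descending ones, with replicate 2 alone low. Coro1a, an actin regulator, differed by -0.18 ± 0.21 (SE) and Aif1, which encodes IBA1, by -0.11 ± 0.18 (SE).

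The direction of most of these differences changed with the ascending array left out. Without ascending replicate 2 the median difference of the 33 genes was 0.07 in place of -0.21, and 23 genes had the higher mean in ascending aorta. In that fit 0 genes passed, and 3 members, Ms4a7, Ctss and Mpeg1, were higher at an unadjusted p of 0.05, against 2.3% of all genes, and 0 were lower, against 3.85%. Their differences there were 0.19, 0.46 and 0.34. Without ascending replicate 3 the median was -0.43, 31 genes had the lower mean, and 13 members were lower at an unadjusted p of 0.05, against 9.27% of all genes, and 0 were higher, against 7.98%. Of these, Lcp1 and Cd68 passed the adjusted threshold (limma adjusted p = 0.00762 and 0.0484), at -0.99 ± 0.14 and -0.71 ± 0.16 (SE), where 2.61% of all genes were called lower. Called higher were 0 members and 2.07% of all genes. Both arrays were singled out by their values, ascending replicate 2 by those of the 33 genes themselves. This makes p-values without either array too small by an unknown amount.

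**Figure D3:**
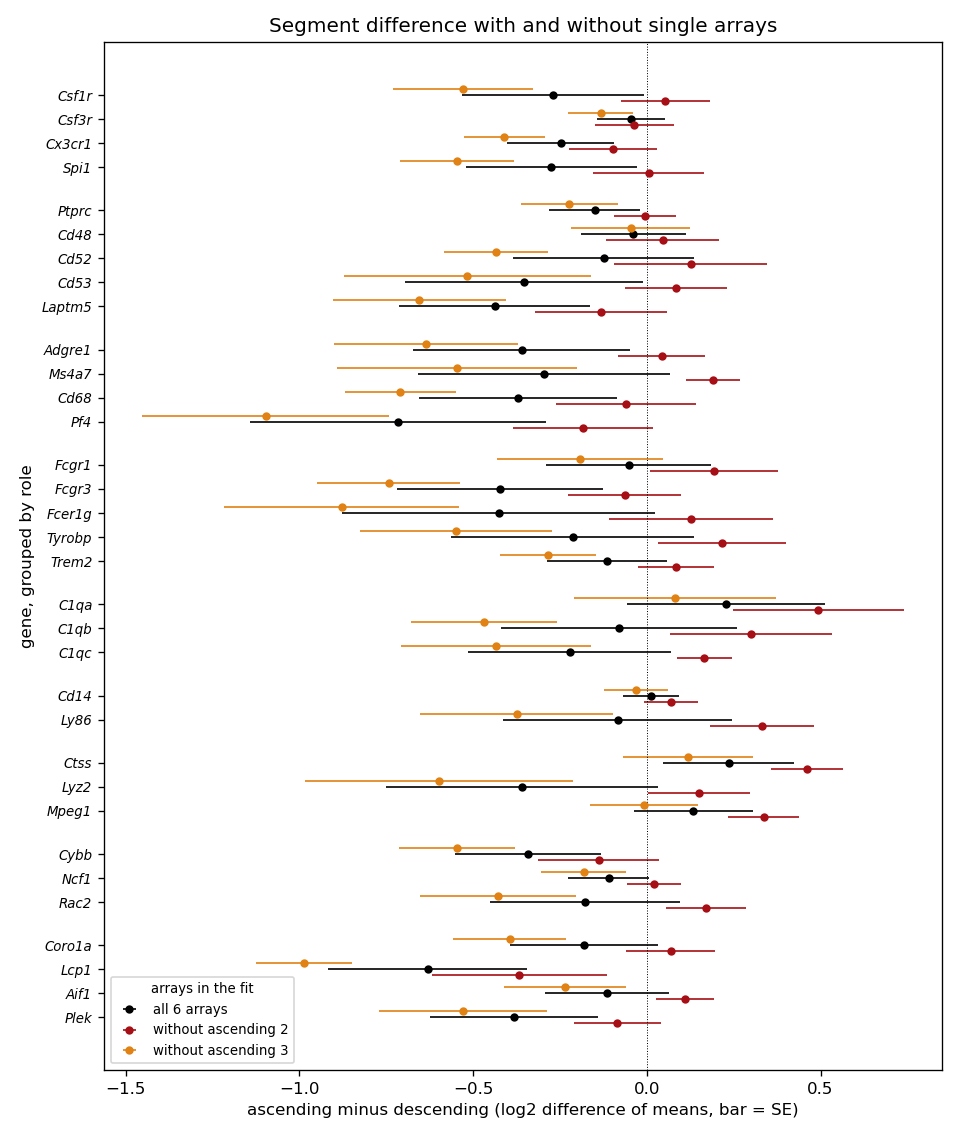
Difference between segments (ascending minus descending, log2, with SE as bars) of the 33 genes in 3 fits: all 6 arrays in black, without ascending replicate 2 in dark red and without ascending replicate 3 in orange. The red points centre on 0.07 and the orange points on -0.43, so the array left out moves most genes across or away from 0.

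Ascending replicate 1 had no common place across the 33 genes. It was below all descending arrays for 13 genes, above all of them for 9 and within their range for 11. Over all genes it was within the range for 39.6%, so lying outside it was not particular to the 33. The shares of all genes below and above the range were not counted. The 13 were the same ones for which replicates 1 and 2 were both below all descending arrays (39.4% of the members, against 18.9% of all genes): Csf1r, Csf3r, Cx3cr1, Spi1, Cd52, Laptm5, Cd68, Pf4, Fcgr3, Trem2, Cybb, Coro1a and Lcp1. Replicates 1 and 3 were both above all descending arrays for 8 genes (24.2%, against 9.31% of all genes): Ms4a7, C1qa, C1qc, Cd14, Ly86, Ctss, Mpeg1 and Aif1. The reverse patterns, replicates 1 and 2 both above or replicates 1 and 3 both below, held for 0 members, against 15.6% and 15.5% of all genes. Both counts were fixed by values already given and add nothing to them. Replicate 2 was below the descending mean for all 33 genes, and replicate 3 was below all descending arrays for 0. These groups were read from the values and carry no test. Some genes entered them by a small margin. On ascending replicate 1, Trem2 read 8.31 where the lowest descending array gave 8.33. Aif1 read 6.31 there, where the highest descending array gave 6.28.

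The stretches before the start sites of the 33 genes were searched on both strands. The sequences sought were the core of the element that PU.1 binds, GAGGAA, and its longer form GAGGAAGT. RefSeq promoters (GRCm38.p6) were at hand for 25 of the 33 genes, and the window was the 250 bases before the start. The core stood before 14 of these 25 genes and before 25.9% of 27025 genes, and the longer form, which contains the core, before 2 of the 25 and before 2.79% of all. A match is a description of letters and not a binding site, and its relation to the levels on any array was not tested. Promoters of 4 genes with wide ranges between arrays and of C1qc, the neighbour of C1qb in the genome, are shown with the matches in capitals, read along the gene. Pf4 (chr5:90772185-90772434, plus strand) holds the longer form in reverse with its core 8 bases before the start, C1qb (chr4:136886201-136886450, minus strand) holds the core 30 bases before the start and C1qc (chr4:136892915-136893164, minus strand) the longer form in reverse with its core 193 bases before the start. Fcer1g (chr1:171234350-171234599, minus strand) and Lyz2 (chr10:117282273-117282522, minus strand) hold neither in this window.
Pf4: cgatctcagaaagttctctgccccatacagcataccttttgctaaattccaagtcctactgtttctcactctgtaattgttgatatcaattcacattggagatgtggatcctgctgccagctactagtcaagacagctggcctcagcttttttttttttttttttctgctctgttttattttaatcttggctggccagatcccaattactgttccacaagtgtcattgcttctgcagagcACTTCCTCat
C1qb: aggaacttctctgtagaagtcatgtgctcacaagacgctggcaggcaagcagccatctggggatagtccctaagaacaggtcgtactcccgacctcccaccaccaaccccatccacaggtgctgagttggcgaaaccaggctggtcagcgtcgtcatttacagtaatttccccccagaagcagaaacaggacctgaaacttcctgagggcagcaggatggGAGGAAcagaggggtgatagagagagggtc
C1qc: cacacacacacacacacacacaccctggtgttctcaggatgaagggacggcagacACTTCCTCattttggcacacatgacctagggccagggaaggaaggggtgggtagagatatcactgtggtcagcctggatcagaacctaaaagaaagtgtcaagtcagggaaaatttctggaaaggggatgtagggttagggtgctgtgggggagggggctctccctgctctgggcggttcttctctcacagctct
Fcer1g: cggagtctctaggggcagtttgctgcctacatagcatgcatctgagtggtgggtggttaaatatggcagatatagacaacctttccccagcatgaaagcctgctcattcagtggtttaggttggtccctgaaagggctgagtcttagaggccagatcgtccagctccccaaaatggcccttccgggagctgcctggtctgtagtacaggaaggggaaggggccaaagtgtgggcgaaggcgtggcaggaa
Lyz2: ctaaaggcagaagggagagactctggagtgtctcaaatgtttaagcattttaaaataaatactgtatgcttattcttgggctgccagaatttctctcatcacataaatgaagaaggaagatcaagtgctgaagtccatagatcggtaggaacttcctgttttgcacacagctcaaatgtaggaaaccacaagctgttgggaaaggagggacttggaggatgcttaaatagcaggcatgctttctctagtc

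Other genes of the same pathways came from lists that share no gene with the 33. Of 25 measured genes of ITAM and integrin signalling in leukocytes, ascending replicate 2 was lowest for 20, and the list medians relative to the descending mean were -0.16, -0.44 and 0.05 on ascending replicates 1, 2 and 3. None passed limma, and 1 was lower at an unadjusted p of 0.05: Hcls1, an actin-binding substrate of these kinases, at -0.42 ± 0.16 (SE). At that threshold 1062 of 19938 genes were lower. Without ascending replicate 3 only Inpp5d, a phosphatase that restrains this signalling, was called lower in this list, at -0.48 ± 0.11 (SE, limma adjusted p = 0.0498), where 2.61% of all genes were. Of the ligands of the CSF1 receptor, Csf1 read 8.62, 8.39 and 8.72 on ascending replicates 1, 2 and 3 and 8.95, 8.80 and 8.92 on the descending ones, lower on each ascending array than on every descending one, with a difference of -0.31 ± 0.10 (SE) that did not pass (limma adjusted p = 0.53). Il34, the other ligand, differed by -0.08 ± 0.08 (SE). The ligand of Cx3cr1, Cx3cl1, differed by -0.51 ± 0.18 (SE) and the monocyte chemokine Ccl2 by -0.51 ± 0.14 (SE), both also without overlap of the segments, which held in this direction for 8.95% of all genes, and neither passing. Without ascending replicate 3 both were called lower, Cx3cl1 at -0.69 ± 0.13 (SE, limma adjusted p = 0.0247) and Ccl2 at -0.64 ± 0.13 (SE, limma adjusted p = 0.0304). The third gene called lower there, of 14 measured in the chemokine list, was Ccl7 at -1.02 ± 0.10 (SE, limma adjusted p = 0.00188). Over the 17 measured regulators of macrophage growth and lineage, 0 passed. At an unadjusted p of 0.05, 2 were higher and 3 lower, where 790 and 1062 of 19938 genes were. These regulators included Irf5 at 0.44 ± 0.15 (SE) and Zeb2 at -0.41 ± 0.14 (SE). Without ascending replicate 3, Irf5 was called higher at 0.62 ± 0.09 (SE, limma adjusted p = 0.00979) and Cebpb at 0.66 ± 0.13 (SE, limma adjusted p = 0.0337). Zeb2 was called lower at -0.56 ± 0.10 (SE, limma adjusted p = 0.0208) and Maf at -0.76 ± 0.15 (SE, limma adjusted p = 0.0273). Over all genes, 2.07% were called higher and 2.61% lower in that fit.

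Genes of Lyve1-positive resident macrophages were low on both ascending replicates 1 and 2, with list medians of -0.56, -0.95 and -0.09 over 11 genes. Of these, 0 passed limma and 4 were lower at an unadjusted p of 0.05, where 1062 of 19938 genes were. Lyve1, a hyaluronan receptor that lymphatic endothelium also makes, read 8.10, 7.20 and 9.90 on ascending replicates 1, 2 and 3 and 10.61, 10.34 and 10.64 on the descending ones. Its difference of -2.13 ± 0.59 (SE) did not pass (limma adjusted p = 0.53). Mrc1, the mannose receptor, read 8.36, 7.84 and 9.49 on ascending replicates 1, 2 and 3 and 9.71, 9.65 and 9.62 on the descending ones, and Stab1, a scavenger receptor also made by endothelium, differed by -0.57 ± 0.23 (SE). All 3 were lower on ascending replicates 1 and 2 than on the other 4 arrays. Without ascending replicate 3, 6 of the 11 were called lower, where 2.61% of all genes were: Lyve1 at -2.88 ± 0.24 (SE, limma adjusted p = 0.000867), Mrc1 at -1.56 ± 0.15 (SE, limma adjusted p = 0.0016), and F13a1, Stab1, Folr2 and Msr1 at -2.04, -0.85, -0.93 and -0.92. Lymphatic endothelial genes, whose medians are given with the wall cells, were low on the same arrays, and their part in the level of Lyve1 was not tested. Typical microglia genes had medians of -0.00, -0.28 and 0.10 over 8 genes. Without ascending replicate 3, Sall1 was called higher and Olfml3 lower, at 0.60 and -0.88, where 2.07% and 2.61% of all genes were. Whether these lists differ from the 33 genes was not tested.

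Markers of other blood cells were set beside these values, since many of the 33 genes are also made by them. Megakaryocyte and platelet genes followed with medians of -0.02, -0.68 and -0.08 over 7 genes on ascending replicates 1, 2 and 3, and Ppbp, a platelet chemokine, read 9.76, 7.87 and 9.19 on ascending replicates 1, 2 and 3 and 9.31, 10.44 and 8.99 on the descending ones. It was lowest on the same array as Pf4 and Plek, which platelets also express, and highest on the same array, descending replicate 2. This was not particular to them: 31 of the 33 genes were lowest on ascending replicate 2, and Ptprc, Fcgr1 and Lyz2 were also highest on descending replicate 2. The part of platelets in the levels of Pf4 and Plek was not tested. Erythroid genes gave medians of 0.04, -0.19 and 0.06 over 9 genes. Neutrophil granule genes gave 0.02, -0.09 and 0.04 over 13 and B cell genes -0.00, -0.11 and -0.09 over 8.

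T and NK cell genes gave 0.05, -0.13 and -0.07 over 14 genes, of which 7 had the lower mean in ascending aorta. Il7r, with the smallest p of the list (limma, unadjusted p = 0.0883), read 6.00 on ascending replicate 1 and 6.13 to 6.56 on the descending arrays. Ascending replicate 1 was instead the highest array for Cd3g, Gzma and Cd3e. Cd3g, a chain of the T cell receptor complex, read 7.59, 5.16 and 5.13 on ascending replicates 1, 2 and 3 and 5.16, 5.40 and 5.19 on the descending ones. Gzma, a granule protease of killer cells, read 6.99 on ascending replicate 1 and 5.10 to 5.24 on the others, and Cd3e 7.23 against 6.56 to 6.97. Lymphocytes also express pan-leukocyte genes such as Ptprc, Cd53, Cd52, Coro1a and Rac2, and their part in the level of these on ascending replicate 1 was not tested.

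Of the cell types of the wall itself, endothelial genes had medians of -0.49, -0.51 and -0.16 on ascending replicates 1, 2 and 3 over 12 genes, so replicates 1 and 2 were level there, where the 33 genes gave -0.06, -0.84 and 0.20. Lymphatic endothelial genes gave -0.63, -0.62 and -0.18, fibroblast genes -0.17, -0.37 and 0.04, smooth muscle genes 0.19, 0.00 and -0.20, and mesothelial and epicardial genes 1.62, 1.52 and 0.42. Acta2, the actin of smooth muscle, stayed between 13.63 and 13.77. Broadly expressed lysosome genes gave -0.01, -0.24 and 0.01 over 11. None of these genes passed limma on all 6 arrays. Without ascending replicate 3, 5 of 12 endothelial, 3 of 5 lymphatic, 2 of 6 fibroblast and 1 of 11 lysosome genes were called lower. The share of all genes called lower there was 2.61%. Called higher were 6 of 9 mesothelial and epicardial and 2 of 10 smooth muscle genes, against 2.07% of all genes. The part of these cell types in the levels of the 33 genes was not tested.

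**Figure D4:**
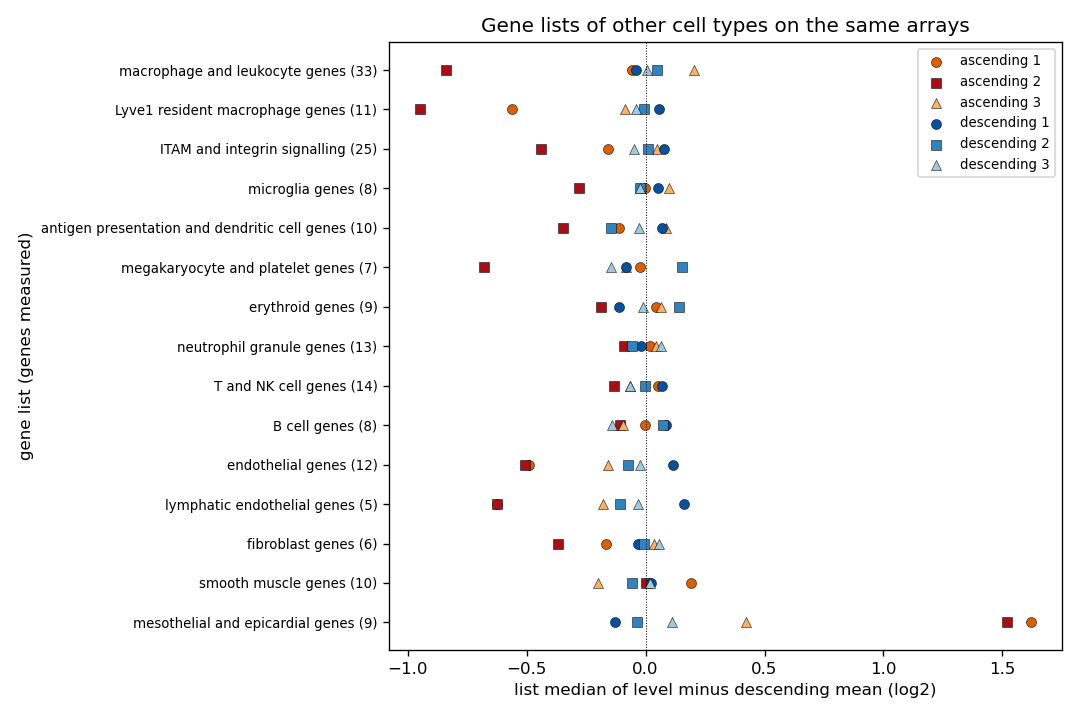
Median over each gene list of the level minus the descending mean (log2) on each of the 6 arrays, with the number of genes measured beside the name. The dark red square of ascending replicate 2 lies left of the other arrays in every row down to the T and NK cell genes, with the widest gap to the next array for the 33 genes, while in the endothelial rows ascending replicates 1 and 2 coincide and in the mesothelial row both lie to the right.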

How the data were processed

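RNA of the ascending and the descending aorta was hybridised as biotin-labelled cRNA to Affymetrix arrays, per the labels' protocols. The authors deposited log2 expression of 35556 probe sets after RMA, which subtracts background, equalises the arrays and summarises probes; per the submitters' processing notes the tools were RMA and Partek 6.6, with settings, genome build and annotation not given in the sources used here. Equalised arrays hide a change shared by most genes, and RMA shrinks differences of dim genes. Groups came from the sample titles. Probe sets with 1 symbol in the platform's gene annotation were kept (21789), and of several for a gene the 1 with the highest mean, which left 19938 genes.

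Segments were compared per gene with limma 3.58.1 (lmFit and eBayes, R 4.3.3) in a two-sided test of 6 arrays with no covariate, and p-values were adjusted by Benjamini and Hochberg across the 19938 genes, at a threshold of 0.05. With 3 against 3 arrays an exact permutation test cannot go below 0.1, so none was run. Values on every array are given for the gene with the highest mean of each role and for the 6 with the smallest p. They are also given for the 6 with the widest range and for some further ones picked from their values. Genes of other lists were taken from up to 3 with the smallest p, the brightest and those called without ascending replicate 3. Not all of these are named, and Il34 was added. The 33 genes and the lists were chosen with earlier results of these data known. Same-numbered replicates showed no shared deviation (correlations of same-numbered deviations -0.0798, -0.0548 and 0.024). With 3 arrays per segment this check cannot exclude pairing, and the labels do not say whether samples were paired. The script was tested on simulated data with 200 of 19938 genes changed in each of 3 sets for ascending against descending aorta on 6 arrays: 82.5% of changes of 1 and 97.5% of changes of 2 on the log2 scale were recovered, and 3.72% of calls were false. These shares are averages over genes drawn from all, with noise independent between genes and arrays. The 33 genes spread more (median ascending SD 0.55, against 0.12 over all genes) and moved together on single arrays. The shares therefore do not hold for them. Python 3.11.15, pandas 2.3.3 and matplotlib 3.10.9 prepared tables and plots. Alternatives were other scalings, filters, probe set and variance rules, the replicate block and leaving out each array.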

Additional observations from a re-analysis of the deposited data

How the results depend on the processing

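Of 9 alternatives that kept all arrays, none called a gene, among the 33 or elsewhere; under the replicate block 0 members and 0 genes passed, and the block changed no call. With array weights 1 member (of 33) reached an unadjusted p of 0.05, and the other 8 gave 0; the weights also moved the median difference of the members from -0.213 to -0.128. Leaving out each array gave 0 to 2 members called, 0 to 933 genes called and 0 to 13 members at an unadjusted p of 0.05, the upper ends all without ascending replicate 3, and a median difference of the members from -0.434 to 0.0703, the last without ascending replicate 2. The count of genes lowest on ascending replicate 2 was 29 when quantile normalization was repeated and 30 when arrays were median-centred, in place of 31, and that of genes highest on replicate 3 was 22 and 23, in place of 22; these 2 checks were chosen after seeing the data.

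Of the single genes, 10 kept their direction in every alternative. Without ascending replicate 2, 19 turned; their differences over the fits without 1 array were Csf1r -0.528 to 0.0534, Spi1 -0.546 to 0.00582, Cd48 -0.133 to 0.12, Cd52 -0.434 to 0.127, Cd53 -0.628 to 0.085, Adgre1 -0.635 to 0.0426, Ms4a7 -0.546 to 0.191; Fcgr1 -0.229 to 0.194, Fcer1g -0.878 to 0.127, Tyrobp -0.55 to 0.217, Trem2 -0.285 to 0.0845, C1qb -0.469 to 0.3, C1qc -0.434 to 0.166, Ly86 -0.374 to 0.331; Lyz2 -0.628 to 0.15, Ncf1 -0.182 to 0.0198, Rac2 -0.428 to 0.17, Coro1a -0.395 to 0.0695, Aif1 -0.235 to 0.11. The others that turned without another array were Csf3r -0.133 to 0.0321, C1qa -0.0404 to 0.494, Cd14 -0.0309 to 0.0703, Mpeg1 -0.00903 to 0.336. After repeated quantile normalization Csf3r was at 0.00152 and Cd48 at 0.0179. The cause of these turns was not tested beyond the array left out. Precision is limited by the number of arrays. No signal over background was given, so how far dim genes such as Aif1, Cd14, Cd48 and Csf3r lie above it is unknown.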
